A study of Mus musculus with 16 samples.

Results

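Pf4 and Ppbp are neighbouring mouse chemokine genes that are classically assigned to platelets, and their transcripts were followed in bone marrow-derived macrophages exposed to platelets. They were chosen by name and not by a cut-off on measured values, though earlier results of these data were known. They are 2 of the 46320 genes in the deposited count table and 2 of the 15610 genes that passed the filter on low counts. Bone marrow of C57BL6/J mice had been cultured for 7 days with L929-cell conditioned medium, a source of M-CSF, and the resulting macrophages were kept in 0.5% serum for 4 h before treatment. There were 4 groups of 4 libraries, each treated for 4 h with PBS vehicle, with thrombin, with resting platelets, or with platelets activated by thrombin. The platelets had been purified from blood of C57BL6/J mice, so every group shares the C57BL6/J genotype, and platelets without macrophages were not analysed here. The protocol gives thrombin as 0.01 U/mL both for thrombin alone and for activation, whereas the labels of the thrombin libraries give 0.1 U/mL, and the labels of the activated-platelet libraries give no dose.

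Pf4 encodes platelet factor 4 (CXCL4), a CXC chemokine of the alpha granules that lacks the ELR motif and binds heparin and related glycosaminoglycans. Ppbp encodes pro-platelet basic protein, which is cut to beta-thromboglobulin and to NAP-2 (CXCL7), an ELR chemokine that attracts neutrophils through CXCR2. Platelets have no nucleus and carry messenger RNA left from the megakaryocyte, and both genes belong to the transcripts that platelets are known to carry. Pf4 is also transcribed by some macrophages. In bulk RNA of a mixed culture, transcript made by the macrophage, transcript carried in by platelets, the number of platelets present and the RNA per platelet cannot be told apart.

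In units of 1000000 counts, library totals were 22.6 to 27.7 in the vehicle group, 23.1 to 26.7 with thrombin, 24.9 to 26.4 after resting and 28.0 to 30.6 after activated platelets. All 11 listed macrophage markers passed the filter, and together they held 1.78% to 2.25% of the counts in every library. The 4 libraries numbered 1 carried the Y-linked transcript Ddx3y at 85.1 to 93.2 CPM (counts per 1000000 of the scaled library total), against 0 to 0.27 CPM in the 12 libraries numbered 2 to 4. Xist showed the opposite order, at 0.0716 to 1.06 CPM against 1060 to 1290 CPM, so number 1 differed in sex from the other numbers in each group. The labels do not state whether the numbers mark separate animals or cultures, so p-values measure the spread between these libraries.

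In the GRCm39 annotation of the deposited table, Ppbp lies at chromosome 5, 90916377 to 90917922, and Pf4 at chromosome 5, 90920294 to 90921242, both on the plus strand and both protein coding. Only 2371 bases separate the end of Ppbp from the start of Pf4. The combined exon length is 1083 bases for Ppbp and 588 bases for Pf4. The RefSeq promoter table, which uses the build GRCm38.p6, held both genes. Their start regions, 250 bases before to 50 bases after the first annotated base, are shown because these adjacent genes on 1 strand differed so widely in level in the same macrophages. Capitals mark matches to 3 short motifs. GATAA is the core that factors of the GATA family read. GGAAGT is an ETS-type core, and its opposite strand is spelled ACTTCC. The TATA box was searched for as TATAAA. Ppbp is at chr5:90768268-90768567 and Pf4 at chr5:90772185-90772484, plus strand, 5′ to 3′.
Ppbp: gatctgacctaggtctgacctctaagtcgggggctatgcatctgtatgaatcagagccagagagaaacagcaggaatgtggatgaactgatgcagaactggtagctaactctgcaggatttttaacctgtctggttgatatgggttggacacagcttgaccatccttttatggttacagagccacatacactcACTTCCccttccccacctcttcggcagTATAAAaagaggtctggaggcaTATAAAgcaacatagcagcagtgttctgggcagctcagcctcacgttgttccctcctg
Pf4: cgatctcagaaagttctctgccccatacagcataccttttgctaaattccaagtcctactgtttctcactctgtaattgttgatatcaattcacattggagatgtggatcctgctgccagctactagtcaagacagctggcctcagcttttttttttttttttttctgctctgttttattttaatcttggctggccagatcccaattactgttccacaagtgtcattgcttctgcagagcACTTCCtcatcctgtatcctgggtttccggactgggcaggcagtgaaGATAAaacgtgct
The Ppbp region held TATAAA at 30 to 25 bases and again at 8 to 3 bases before the start, and ACTTCC at 57 to 52 bases before it. The Pf4 region held ACTTCC at 10 to 5 bases before the start and GATAA at 37 to 41 bases after it. No match overlapped another. With both strands searched, GATAA was in 25.4% of the 32851 promoters of the same length in the table, GGAAGT in 23.8% and TATAAA in 13.6%, so none of these matches is rare. They describe letters in a 300-base window and not binding.

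Pf4 was an abundant transcript in the macrophage cultures that received no platelets. The vehicle libraries 1 to 4 held 225.6, 180, 197 and 192.4 CPM, a mean of 198.7 ± 19.26 CPM (SD, n = 4). Divided by exon length this was 338 CPM per kb, which ranked Pf4 138th of the 24197 genes with a mean above 0. Ppbp was close to the limit of counting in the same libraries, with 9, 4, 2 and 11 counts. That is 0.2424 ± 0.1428 CPM (SD, n = 4) or 0.2238 CPM per kb, rank 14931. Ppbp was thus measured from 26 counts in all. It passed the filter on low counts only through libraries with platelets, so a higher level there was built into its entry to the tests.

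**Figure D1:**
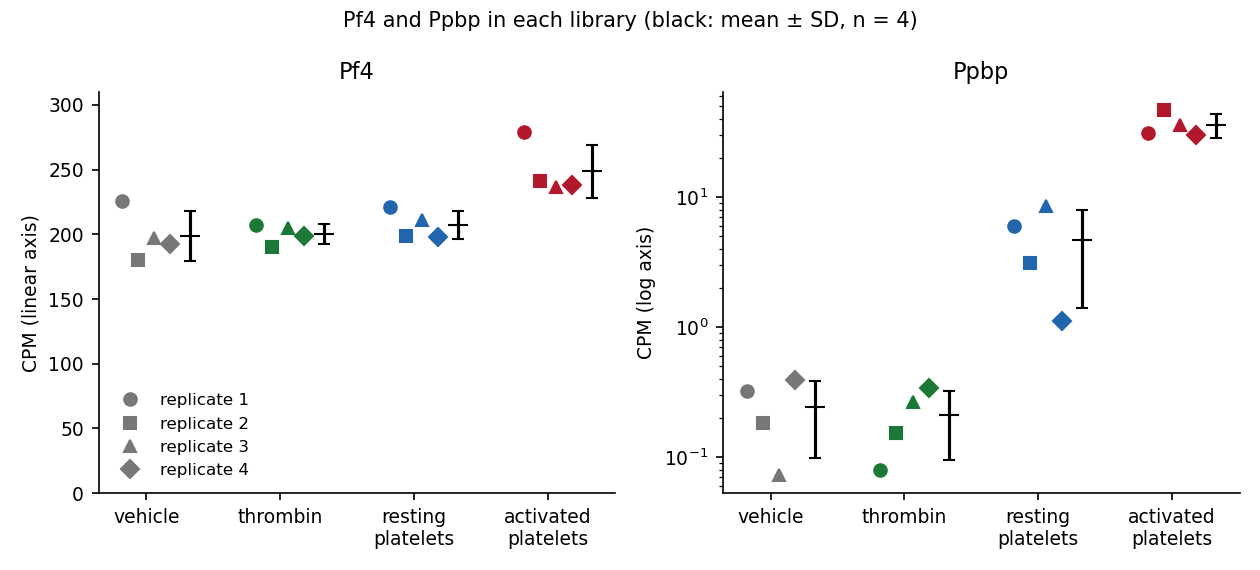
CPM of Pf4 (left, linear axis from 0) and Ppbp (right, log axis) in each of the 16 libraries, with the replicate number given by the marker and mean ± SD (n = 4) in black. Pf4 spans 180 to 278.8 CPM over all libraries, and Ppbp spans 0.0732 to 46.33 CPM, with no overlap between the groups with and without platelets for Ppbp.

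Thrombin alone left no detectable difference in either gene. Pf4 stood at 207.3, 190.5, 204.8 and 198.5 CPM in libraries 1 to 4, inside the vehicle range in each case. The log2 difference from vehicle was 0.01 ± 0.07 (SE), with a 95% interval of 0.912 to 1.11-fold and an adjusted p of 0.986 by edgeR's quasi-likelihood test with Benjamini-Hochberg adjustment, used for all adjusted p-values that follow unless another tool is named. Ppbp had 2, 4, 6 and 9 counts, or 0.2095 ± 0.115 CPM (SD, n = 4), and its groups overlapped fully. Its log2 difference of -0.23 ± 1.02 (SE, adjusted p = 0.978) carried an interval of 0.191 to 3.82-fold, so a change of that size was not detectable at this depth. Of all tested genes, 0.288% passed the threshold of 0.05 in this comparison, and neither member did.

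With resting platelets the 2 genes parted. Ppbp rose to 157, 75, 222 and 28 counts in libraries 1 to 4, which is 5.946, 3.092, 8.589 and 1.108 CPM, with a mean of 4.684 ± 3.274 CPM (SD, n = 4). All 4 libraries lay above all vehicle and thrombin libraries, and they differed widely among themselves, with a coefficient of variation of 69.9%. The fold over vehicle was 18.7 (log2 4.23 ± 0.60 SE, 95% interval 7.77 to 45.2-fold, adjusted p = 0.00123), in a comparison where 3.39% of tested genes passed, 2.07% upward and 1.32% downward. By limma-voom the adjusted p was 0.0532, and without the 4 libraries numbered 1 it was 0.0795.

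Pf4 showed no such step with resting platelets. It stood at 220.9, 198.4, 211.4 and 198 CPM, a mean of 207.2 ± 11.07 CPM (SD, n = 4) that overlapped the vehicle range. The log2 difference was 0.06 ± 0.07 (SE, adjusted p = 0.701), and the 95% interval of 0.944 to 1.15-fold leaves room for a small change in either direction. Compared within replicate number, Pf4 was higher than vehicle in 3 of 4 numbers, by 18.4, 14.4 and 5.6 CPM in numbers 2 to 4, and it was 4.7 CPM lower in number 1. Ppbp was higher in 4 of 4 numbers, by 5.62, 2.91, 8.52 and 0.716 CPM.

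Activated platelets went with the highest level of both genes. Ppbp reached 955, 1337, 990 and 877 counts, or 30.96, 46.33, 35.58 and 30.08 CPM, with a mean of 35.74 ± 7.462 CPM (SD, n = 4). The lowest of these libraries lay above the highest resting-platelet library, and the coefficient of variation was 20.88%. Against vehicle Ppbp rose 142-fold (log2 7.15 ± 0.55 SE, 95% interval 63.8 to 317-fold, adjusted p = 1.16e-07). In this comparison 25.8% of tested genes passed, 12.2% upward and 13.6% downward, so a call alone sets neither gene apart. For Ppbp, a higher level with platelets than in vehicle or with thrombin was also built into its passing the filter.

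Pf4 rose with activated platelets too, by a far smaller factor. It stood at 278.8, 241.2, 236.5 and 237.8 CPM, a mean of 248.6 ± 20.23 CPM (SD, n = 4), and all 4 libraries exceeded the highest vehicle library at 225.6 CPM. Library 1 was the highest of this group, as it was in each of the other 3 groups. The rise over vehicle was 1.25-fold (log2 0.32 ± 0.07 SE, 95% interval 1.13 to 1.38-fold, adjusted p = 0.00219). Per kb its mean went from 338 to 422.8 CPM, and its rank from 138 to 105.

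The comparisons of activated platelets with thrombin alone and with resting platelets share the activated libraries with the one above, so they add no independent evidence for it. Against thrombin alone, Pf4 was higher by 0.31 on the log2 scale (adjusted p = 0.00283) and Ppbp by 7.38 (adjusted p = 1.23e-07), where 25.4% of tested genes passed. Against resting platelets, Pf4 was 1.20-fold higher (log2 0.26 ± 0.07 SE, adjusted p = 0.0148) and Ppbp 7.60-fold higher (log2 2.93 ± 0.38 SE, adjusted p = 7.31e-05), where 15.8% passed. The Pf4 difference from resting platelets was the least firm of these calls, with an adjusted p of 0.062 without the libraries numbered 3 and 0.0673 without those numbered 4.

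The interaction of platelets and thrombin asked whether the fold of both together differed from the product of the folds of each alone. On this log2 scale it does not compare sums of amounts. It was 0.25 ± 0.10 (SE) for Pf4 with an adjusted p of 0.109, and 3.15 ± 1.13 (SE) for Ppbp with an adjusted p of 0.0892, and neither passed where 9.93% of tested genes did. With the replicate number as a block, the Pf4 interaction passed at an adjusted p of 0.000544, where 29.1% of tested genes passed, and that of Ppbp did not (adjusted p = 0.225). By DESeq2 the Ppbp interaction passed at an adjusted p of 0.00479. It also passed in edgeR without resting-platelet library 3 (adjusted p = 0.0344) or library 4 (adjusted p = 0.0338), the libraries with the most and the fewest Ppbp counts of that group.

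The ratio of both genes within a library does not depend on library scaling. Vehicle libraries held 1.428, 1.01, 0.3715 and 2.04 Ppbp counts per 1000 Pf4 counts, and thrombin libraries held 0.3871, 0.8086, 1.289 and 1.711. Resting-platelet libraries held 26.91, 15.58, 40.62 and 5.597, and activated-platelet libraries held 111.1, 192.1, 150.4 and 126.5. The platelet-free groups overlapped, whereas the 2 platelet groups overlapped neither them nor each other.

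Put per kb of exon, Ppbp amounted to 0.0658% of Pf4 in vehicle libraries and 0.057% in thrombin libraries, but to 1.20% after resting and 7.87% after activated platelets, so Pf4 remained the more abundant transcript in each of the 16 libraries. The mean log2 ratio differed from vehicle by 3.96 with resting platelets (15.5-fold) and by 6.96 with activated platelets (124-fold), and the 2 platelet groups differed by 3.00 (8.02-fold). Each of these, and activated platelets against thrombin at 7.11 (138-fold), had a two-sided exact permutation p of 0.0286, the smallest that 70 arrangements of 4 against 4 libraries allow, and 0.0357 after Benjamini-Hochberg adjustment over the 5 pairs compared. Thrombin against vehicle gave -0.15 with an exact permutation p of 0.771. Ppbp therefore changed by a different factor from Pf4 in the 4 comparisons with platelets, while within replicate numbers 4 pairs cannot give an exact p below 0.125.

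**Figure D2:**
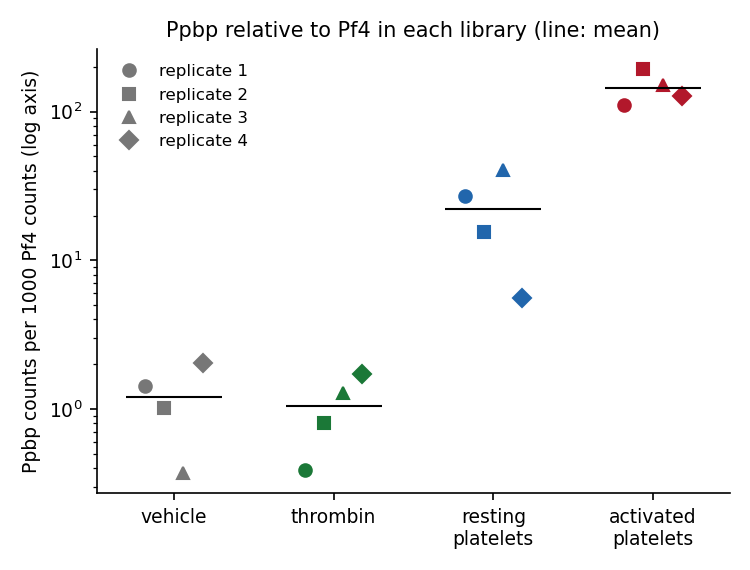
Ppbp counts per 1000 Pf4 counts in each library (log axis), with markers for the replicate number and a line at the group mean. The vehicle and thrombin libraries lie between 0.3715 and 2.04, the resting-platelet libraries between 5.597 and 40.62 and the activated-platelet libraries between 111.1 and 192.1.

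A small fold on an abundant transcript and a large fold on a rare one can be similar in absolute amount, so the differences were also set side by side in CPM. From vehicle to activated platelets within numbers 1 to 4, Pf4 gained 53.2, 61.2, 39.5 and 45.4 CPM and Ppbp gained 30.6, 46.1, 35.5 and 29.7 CPM. The means were 49.83 ± 9.433 CPM for Pf4 and 35.48 ± 7.528 CPM for Ppbp (SD, n = 4). In each number the Pf4 gain was the larger one, 1.11 to 1.74 times the Ppbp gain in CPM and 2.05 to 3.2 times per kb of exon. The gain was 20.1% to 34.0% of the vehicle level for Pf4.

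The gain from resting to activated platelets had the same sign in all 4 numbers for both genes. It was 57.9, 42.8, 25.1 and 39.8 CPM for Pf4, a mean of 41.4 ± 13.45 CPM (SD, n = 4). For Ppbp it was 25.0, 43.2, 27.0 and 29.0 CPM, a mean of 31.05 ± 8.263 CPM (SD, n = 4). In CPM the Ppbp gain was slightly the larger one in numbers 2 and 3. Per kb of exon the Pf4 gain was the larger one in all 4 numbers, at 1.71 to 4.26 times the Ppbp gain. With resting platelets alone the mean gain over vehicle was 8.425 ± 10.25 CPM for Pf4 and 4.442 ± 3.379 CPM for Ppbp (SD, n = 4). With resting platelets, a Pf4 gain as small as the mean Ppbp gain would lie within the spread of the Pf4 gains between numbers, whose SD was 10.25 CPM. Whether platelets carried such an amount was not tested.

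**Figure D3:**
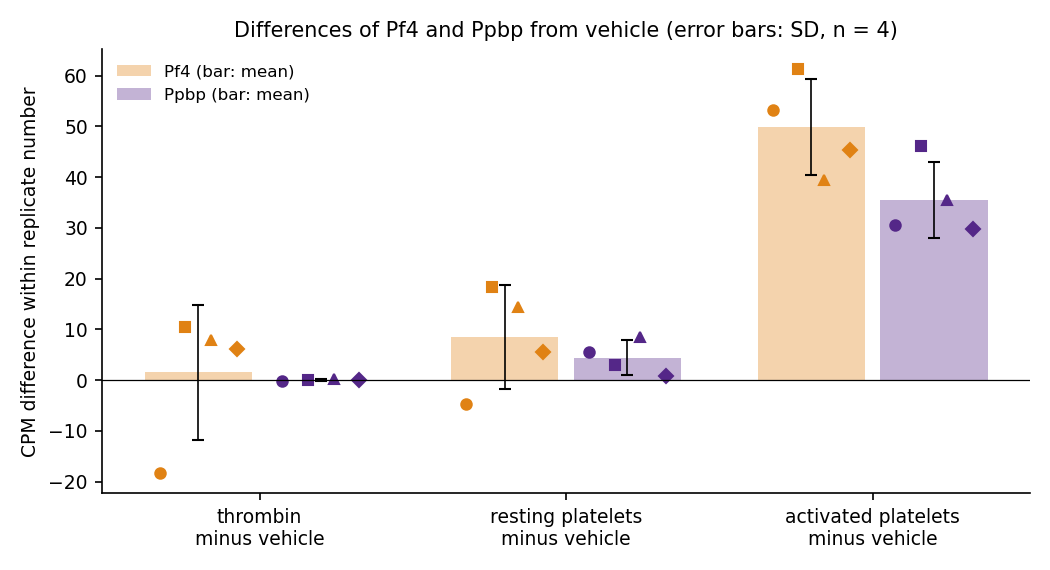
CPM difference from the vehicle library of the same replicate number for Pf4 (orange) and Ppbp (purple), as points per number with bars for the mean and error bars for the SD (n = 4). With activated platelets both genes gain in all 4 numbers, with means of 49.83 CPM for Pf4 and 35.48 CPM for Ppbp, whereas with thrombin the Pf4 differences fall on both sides of 0.

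The genes whose pattern was most like that of Ppbp, by Pearson correlation of log2 CPM over the 16 libraries among 12225 candidate genes, were Hba-a2 (r = 0.99), Hba-a1 (r = 0.9885), Nrgn (r = 0.985), Gp9 (r = 0.9839) and Cd226 (r = 0.9787). These points share library and depth and fall into groups, so r describes the pattern of group means as much as that of libraries. Gp9 encodes a subunit of the platelet receptor for von Willebrand factor, Nrgn the calmodulin-binding protein neurogranin, Cd226 an adhesion receptor of lymphocytes and platelets, and Hba-a1 and Hba-a2 the nearly identical alpha globins of red cells, between which reads can be split uncertainly. In the 4 vehicle libraries together, Gp9 had 0 counts, Hba-a1, Hba-a2 and Cd226 had 1 each and Nrgn had 2, against 26 for Ppbp.

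Nrgn was picked for its correlation with Ppbp over these same libraries, so an even ratio of both is largely set by that choice and is given as a description. Per Nrgn count there were 0.77, 0.735, 0.758 and 0.651 Ppbp counts in resting-platelet libraries 1 to 4, and 0.816, 0.764, 0.745 and 0.773 in activated-platelet libraries 1 to 4. The exact 95% counting intervals of the resting libraries, the widest of which is 0.39 to 1.07 in library 4, can be read beside the pooled activated ratio of 0.773. Ppbp in the resting libraries varied about as much as Nrgn did, which had 204, 102, 293 and 43 counts. The order of libraries (3, 1, 2, 4) was the same for Ppbp, Nrgn, Gp9, Hba-a1 and Cd226, but not for Hba-a2.

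The ratio to the other likest genes was less even. Per Gp9 count the pooled Ppbp ratio was 4.42 with resting and 4.52 with activated platelets, with resting libraries between 2.0 and 6.54 on 14 to 49 Gp9 counts. Per Hba-a1 count it was 4.19 and 5.91, per Hba-a2 count 6.89 and 9.45, and per Cd226 count 5.54 and 8.63. For Hba-a1 and for Cd226 all 4 activated libraries lay above all 4 resting ones, which was not the case for Nrgn, Gp9 or Hba-a2. These ratios were not tested, and the intervals cover counting error only.

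**Figure D4:**
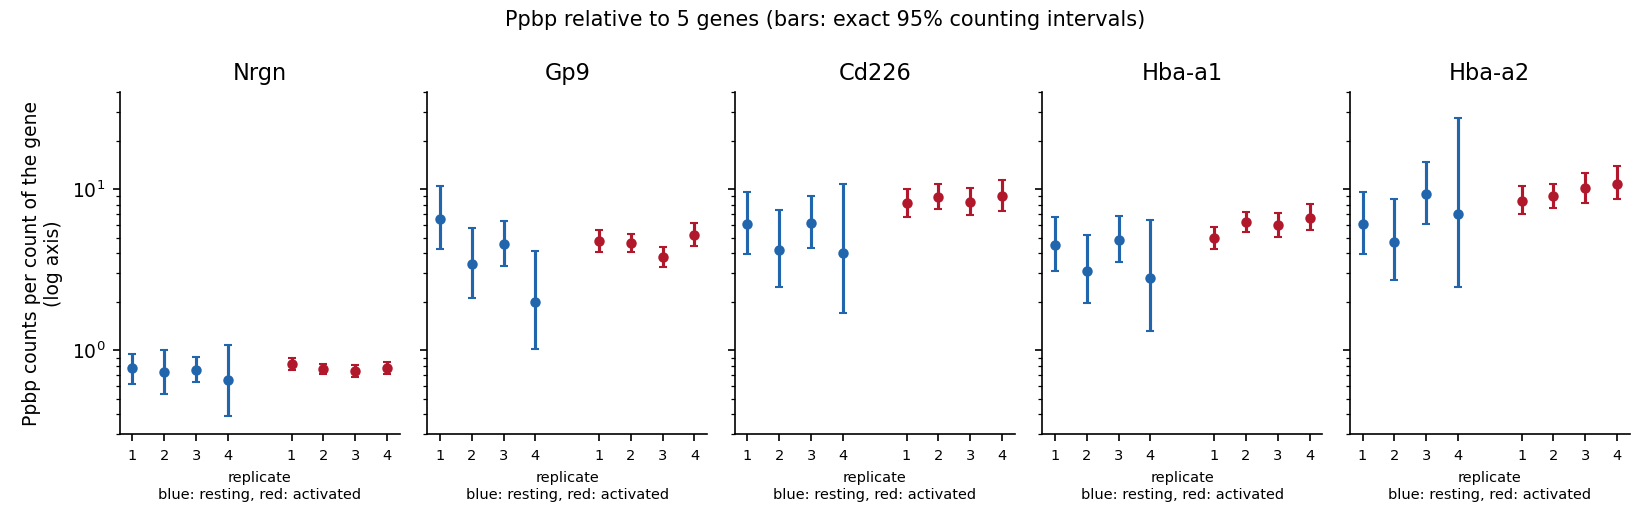
Ppbp counts per count of Nrgn, Gp9, Cd226, Hba-a1 and Hba-a2 (log axis) in the 4 resting-platelet libraries (blue) and 4 activated-platelet libraries (red), with exact 95% counting intervals. The ratio to Nrgn lies between 0.651 and 0.816 in all 8 libraries, and the ratio to Cd226 is 4.0 to 6.17 in the resting and 8.16 to 9.04 in the activated libraries.

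The genes most like Pf4 were of another kind and correlated less closely. They were Nt5e (r = 0.9008), the ectoenzyme CD73 that makes adenosine, Ppp1r3b (r = 0.8938), a glycogen-targeting subunit of protein phosphatase 1, Prpf4 (r = 0.8906), a splicing factor, Mrpl20 (r = 0.8876), a mitochondrial ribosomal protein, and Ms4a6d (r = 0.8849), a membrane protein of myeloid cells. All 5 were present in vehicle macrophages, from 1.699 CPM for Nt5e to 180.4 CPM for Ms4a6d, and all rose with activated platelets, from 0.15 on the log2 scale for Mrpl20 (adjusted p = 0.0279) to 2.79 for Nt5e (adjusted p = 8.69e-06). None passed with resting platelets, where Ms4a6d stood at 193.3 ± 8.279 CPM, nor with thrombin. These 5 genes were picked for their correlation with Pf4 over the same libraries. Their pattern of calls is therefore largely set by that choice and is given as a description. Ms4a6d passed under the replicate block with resting platelets (adjusted p = 0.0257). The Mrpl20 call was lost without vehicle library 2, 3 or 4 or activated library 1 or 2 (adjusted p = 0.0516 to 0.0936). By Spearman's rank correlation, 1 of these 5 and 1 of the 5 genes most like Ppbp stayed among the 5 likest, so the short lists depend on the measure.

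The 20 listed platelet markers all passed the filter, and 9 rose with resting platelets and 16 with activated platelets, against 2.07% and 12.2% of tested genes. One, the signalling regulator Rgs18, fell with activated platelets, and with thrombin none passed. The median log2 difference over the list was 0.85 with resting and 2.94 with activated platelets, beside -0.00306 and -0.00397 over all tested genes. With the replicate block 14 rose and 1 fell with resting platelets, where 21.5% of tested genes passed, and 1 fell with thrombin, where 8.23% passed. Together the 20 markers held 0.0225% to 0.032% of counts in vehicle libraries, 0.026% to 0.0351% with resting and 0.0411% to 0.0446% with activated platelets.

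Many of these markers were also counted in the cultures without platelets. In vehicle, 10 of 20 had a mean above 1 CPM, 8 were under 0.1 CPM, and 3 were at 0 counts, Gp9 and Mmrn1 among them. Those 8 passed the filter only through libraries with platelets, so a higher level there was built into their entry. The same holds for F2rl2, with 17 counts over the vehicle and 7 over the thrombin libraries, and for Ppbp. Gp6, the collagen receptor, went from 0.01136 CPM in vehicle to 0.1967 with resting and 2.008 with activated platelets. Gng11, a G-protein gamma subunit also counted in vehicle macrophages, went from 6.633 to 11.97 and 40.91 CPM. Both were named because their p was among the smallest of the list, so they do not stand for all its members. Among these 20 genes with Pf4 and Ppbp added, Ppbp ranked 6th per kb in activated-platelet libraries at 33 ± 6.89 CPM per kb (SD, n = 4), just below Nrgn at 35.81 ± 8.144, a difference within the spread. Pf4, Myl9, Bin2 and Gng11 stood above both, and the first 3 of these had at least 43.89 CPM per kb in vehicle already.

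Among listed markers of blood cells other than platelets, only those of red cells were called higher with platelets when no replicate block was used. Only Hba-a1 and Hba-a2 of 8 red cell markers passed the filter, and both rose with either platelet preparation. Each had 1 count over the vehicle libraries and 0 with thrombin. They passed the filter only through libraries with platelets, so a rise was built into their entry. The summed red cell markers went from 0 to 2 counts in vehicle libraries and 0 to 1 with thrombin to 19 to 77 with resting and 222 to 410 with activated platelets. None of 7 tested neutrophil markers passed in any comparison, with S100a8 at 5.8 ± 2.424 CPM in vehicle and 12.46 ± 4.159 with activated platelets (adjusted p = 0.0745). S100a8 passed with the replicate block with activated platelets against vehicle (adjusted p = 0.0202) and against thrombin (adjusted p = 0.0475). Of the 2 lymphocyte markers tested, Ighm fell with activated platelets (log2 -2.07, adjusted p = 0.000111). Under the block both fell with resting platelets (adjusted p = 7.13e-05 for Ighm and 0.0189 for Cd79b), Cd79b also fell with activated platelets (adjusted p = 0.00043), and 1 of them fell with thrombin (Ighm, adjusted p = 0.0119). Of the mast cell and basophil markers, only Mcpt8 was tested, and it did not pass. The part of these cells in the levels of Ppbp and Pf4 was not tested.

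Ppbp and Pf4 sit within a cluster of CXC chemokine genes on chromosome 5. Cxcl5, the next gene before Ppbp, had 0, 0, 1 and 1 counts summed over the vehicle, thrombin, resting and activated libraries, and Cxcl15 had none. Cxcl3, the next gene after Pf4, had 24, 39, 46 and 103 counts in the same order and did not pass with activated platelets (adjusted p = 0.0831), but did with the replicate block (adjusted p = 0.0299). Cxcl2, a neutrophil attractant further along, rose from 5.382 ± 1.27 CPM in vehicle to 11.14 ± 4.424 with activated platelets (SD, n = 4; log2 1.06 ± 0.23 SE, adjusted p = 0.00268).

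**Figure D5:**
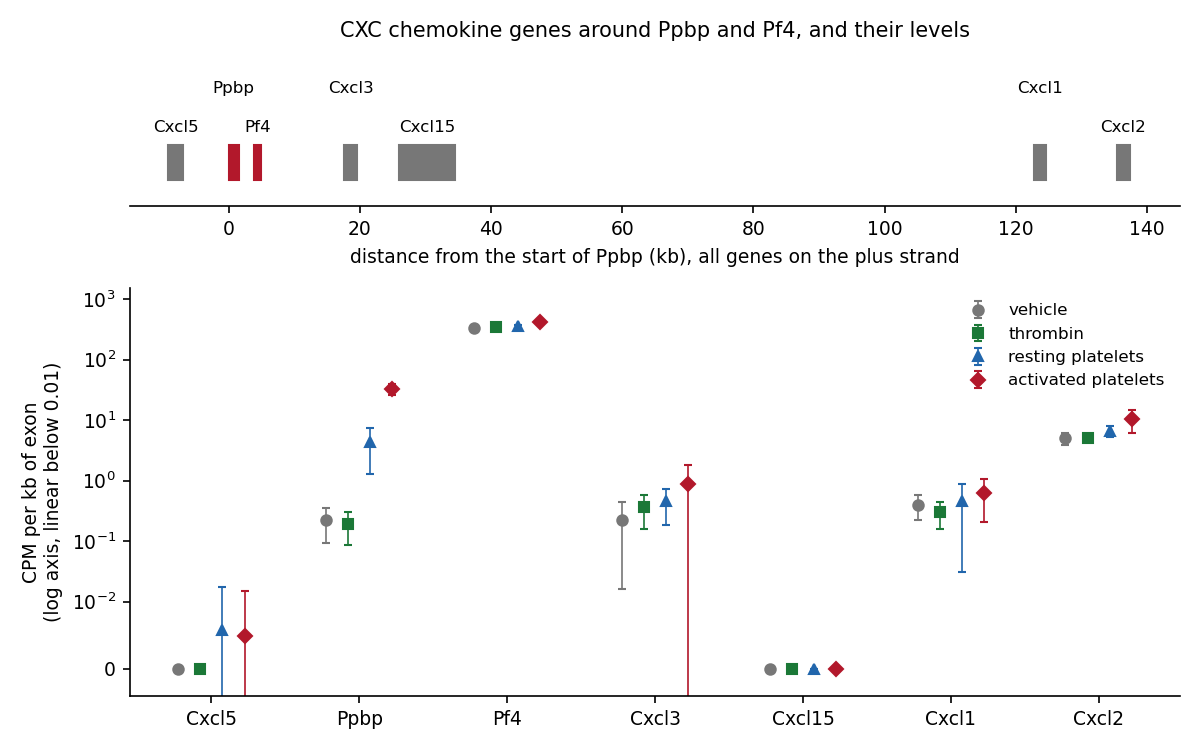
Top, position of the CXC chemokine genes around Ppbp and Pf4 (red) as distance from the start of Ppbp in kb. Bottom, mean CPM per kb of exon in each group with SD (n = 4; log axis, linear below 0.01), where Pf4 lies between 338 and 422.8 in every group, Ppbp rises from 0.2238 in vehicle to 33 with activated platelets, and Cxcl5 and Cxcl15 stay at or near 0.

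Of 13 other CXC ligands, 7 passed the filter, and 2 rose with resting and 3 with activated platelets, with none lower, against 2.07% of tested genes rising with resting and 12.2% with activated platelets. Under the replicate block 4 rose and 1 fell with activated platelets, where 42.5% of tested genes passed. Cxcl14 went from 48.9 CPM in vehicle to 62.63 with resting and 98.58 with activated platelets (log2 1.01 ± 0.07 SE for the latter, adjusted p = 1.92e-08). Cxcl16, a membrane-bound ligand that also binds oxidised lipoprotein, went from 327.5 to 438 and 611.7 CPM (log2 0.90 ± 0.09 SE, adjusted p = 1.25e-06), and its call with resting platelets (adjusted p = 0.0142) was lost without vehicle library 4 (0.0515) or resting library 2 (0.053). The list's median log2 difference was 0.36 with resting and 0.90 with activated platelets, and -0.05 with thrombin, where no member passed.

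Among 9 listed receptors and binding partners of Pf4 and Ppbp, 7 passed the filter. Ccr1, reported as a monocyte receptor of CXCL4, was 31.16 CPM in vehicle, 41.99 with thrombin (adjusted p = 0.0404), 43.14 with resting (adjusted p = 0.00476) and 72.41 with activated platelets (adjusted p = 2.11e-08), and its call with thrombin was lost when any 1 vehicle or thrombin library was left out (adjusted p = 0.0508 to 0.145). Cxcr3, which binds CXCL4 among other ligands, fell from 4.102 CPM to 2.565 with resting (adjusted p = 0.0255) and 1.721 with activated platelets (adjusted p = 2.08e-05). The Cxcr3 call with resting platelets was lost without vehicle library 2 or resting library 1, 2 or 4 (adjusted p = 0.0612 to 0.0825). In counts, 1 rose with thrombin, 1 rose and 1 fell with resting platelets, and 2 rose and 1 fell with activated platelets, with a median log2 difference of 0.16 in the last. The shares of all tested genes that passed in these comparisons were 0.288%, 3.39% and 25.8%. With the replicate block 1 rose and 1 fell with thrombin (8.23% of tested genes passed), 3 rose and 1 fell with resting (21.5%) and 4 rose and 1 fell with activated platelets (42.5%).

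CXCL4 is stored on serglycin and binds heparan sulfate, so the carriers and the enzymes that make these chains were listed too. All 13 passed the filter, none was called with resting platelets or thrombin, and 2 rose and 4 fell with activated platelets, with a median log2 difference of -0.05, where 12.2% of tested genes rose and 13.6% fell. Srgn, the serglycin core protein, rose from 58.91 ± 5.345 to 90.47 ± 4.857 CPM (SD, n = 4; adjusted p = 3.38e-06), and Sdc1, a syndecan, from 71.41 to 127.5 CPM (adjusted p = 6.03e-05). Ndst1, which sulfates heparan sulfate, fell from 174.9 to 121.7 CPM (adjusted p = 8.25e-05). With the replicate block 1 fell with thrombin (8.23% of tested genes passed), 1 rose and 3 fell with resting (21.5%) and 3 rose and 6 fell with activated platelets (42.5%).

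Of 16 genes for alpha granule cargo and assembly, 15 passed the filter, and 3 rose with resting and 6 with activated platelets, with none lower and a median log2 difference of 0.01 and 0.05, where 2.07% and 12.2% of tested genes rose. Of the 15, Mmrn1 had 0 counts over the vehicle and 7 over the thrombin libraries. It passed the filter only through libraries with platelets, so a higher level there was built into its entry. Pdgfa, a growth factor chain, rose from 29.68 CPM in vehicle to 44.72 with resting (adjusted p = 0.000415) and 68.15 with activated platelets (adjusted p = 1.14e-08). F5, coagulation factor V, stood at 1.828 CPM in vehicle, 2.292 with resting and 9.116 with activated platelets (log2 2.32 ± 0.18 SE, adjusted p = 1.8e-07). Nbeal2, needed for alpha granule formation, rose 0.29 on the log2 scale with activated platelets (adjusted p = 0.000786). With the replicate block 1 rose and 1 fell with thrombin (8.23% of tested genes passed), 6 rose with resting platelets (21.5%), and 6 rose and 3 fell with activated ones (42.5%).

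Regulators of the megakaryocyte lineage were the last list. Of 11 genes, 9 passed the filter, and 1 rose with resting and 6 with activated platelets, with none lower and a median log2 difference of 0.12 and 0.32, where 2.07% and 12.2% of tested genes rose. Among the 9, 1 had 0 counts in vehicle and with thrombin and passed the filter only through libraries with platelets, so a higher level there was built into its entry. Nfe2, a factor of late megakaryocytes, went from 0.3207 to 1.342 CPM (adjusted p = 0.000951), and Zfpm1, the GATA1 partner FOG1, from 9.311 to 11.62 CPM (adjusted p = 0.00284), both with activated platelets. Blocking by replicate number, 3 rose with resting platelets (21.5% of tested genes passed), and 6 rose and 1 fell with activated platelets (42.5%).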

How the data were processed

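Per the submitters' processing notes, the tools named were cutadapt 2.5, STAR 2.7.2b and featureCounts 1.6.4 of Subread, with the builds GRCm39 and mm10. Per the labels, libraries were made with TruSeq Stranded mRNA kits. The authors deposited 1 table of estimated counts for 46320 genes in 16 libraries with GRCm39 coordinates and exon lengths. Whole counts had been assumed when the tests were planned, but 25.5% of the values above 0 were not whole, so values were rounded. The deposited count columns were matched to libraries by name, and groups were taken from the labels.

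Genes with too few counts were removed with filterByExpr (edgeR 4.0.16, R 4.3.3, minimum count 10), which left 15610. Libraries were scaled by TMM, and all 16 entered 1 quasi-likelihood fit with group as the factor, with Benjamini-Hochberg adjustment over all tested genes and a threshold of 0.05. CPM uses the TMM-scaled totals. Ratios of Ppbp to Pf4 (pseudocount 0.5) were compared by two-sided exact permutation tests (scipy 1.17.1). DESeq2 1.42.0, limma-voom 3.58.1, other scaling, no filter, 2-group fits, a replicate block and left-out libraries were alternatives. The fit was tested on simulated data with 200 changed genes.

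Named genes were Pf4 and Ppbp, up to 3 genes per list ranked by smallest p, given at least 1 CPM in the higher group, list members next to them on the chromosome, and the 5 likest genes of each (predicted gene models left out). Gp9, Mmrn1, F2rl2, Rgs18, Myl9, Bin2 and Cxcl15, and the sex-linked pair, fall outside that rule in some of their uses and were chosen after their values were seen. A few genes meeting this rule are left out of the text and not reported here. Members and lists were chosen with earlier results of these data known. The prior count in log2 CPM for likeness was 2.

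Replicate numbers recur across groups. The deviations of 24 same-numbered pairs of libraries from their group means correlated at 0.29 to 0.617, against -0.436 to 0.253 for 72 pairs of other numbers, and for 16 of 16 libraries the closest number was their own, so the numbers were taken to pair libraries, from the data and not from the labels. Counts per library bound the precision, and intervals on counts are exact at 95%.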

Additional observations from a re-analysis of the deposited data

Results flagged for a closer look

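Pf4 in activated-platelet library 1, at 278.8 CPM, stood far above the other 3 libraries of its group at 236.5 to 241.2 CPM. Its gap to the next library was 0.889 of the group's range, above Dixon's 95% critical value for 4 libraries. This was 1 of 12 groups of values checked, and chance alone picks about 1 in 20. Number 1 also held the highest Pf4 level in the vehicle, thrombin and resting-platelet groups, and the 4 libraries of that number differ in sex from the others. Whether sex plays a part in this level was not tested. Within number 1 the Pf4 gain from vehicle to activated platelets was 53.2 CPM, inside the range of 39.5 to 61.2 CPM over the 4 numbers.

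Thrombin's effect differed with and without platelets, by the interaction term of edgeR's fit at an adjusted p under the threshold, for 13 of the named genes reported here, in a test that 9.93% of all tested genes passed. None of them is Pf4 or Ppbp. List members were named by their smallest p over all comparisons, this interaction included, and the others by likeness to Pf4. Passing was thus partly built into the choice, and the count of 13 cannot be judged against the 9.93%. On the log2 scale the interaction was 2.29 for Nt5e, 1.88 for F5, 1.75 for Cd14, 1.66 for Gng11, 0.74 for Pdgfa, 0.702 for Cxcl14 and 0.586 for Cxcl16. It was 0.583 for Sdc1, 0.535 for Nbeal2, 0.498 for Srgn, 0.43 for Ppp1r3b, 0.276 for Ms4a6d and 0.23 for Mrpl20. With 1 library left out, those of Sdc1, Ppp1r3b and Mrpl20 lost the call in 12, 9 and 10 of the 16 cases, with adjusted p up to 0.0754, 0.0698 and 0.0808.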

How the results depend on the processing

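The calls of Pf4 and Ppbp kept their direction and their side of the threshold under other size factors, no filter on low counts and 2-group fits, wherever these gave a value. The exceptions under other settings were the log2 difference of Ppbp with resting platelets by limma-voom (4.02, adjusted p = 0.0532), the Ppbp interaction by DESeq2 (3.16, adjusted p = 0.00479) and the Pf4 interaction with the replicate block (0.25, adjusted p = 0.000544). The replicate block changed no other call of the 2 genes in the edgeR fits. For the Ppbp to Pf4 ratio, pairing by replicate number (the block) left the log2 differences at 3.96, 6.96, 7.11 and 3.00 for resting against vehicle, activated against vehicle, activated against thrombin and activated against resting platelets, with an exact sign-flip p of 0.125, the smallest 4 pairs can give.

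Leaving out 1 library gave -0.034 to 0.073 for Pf4 and -0.59 to 0.11 for Ppbp with thrombin, and 2.83 to 3.62 for the Ppbp interaction. Leaving out a replicate number gave -0.01 to 0.06 and -0.65 to 0.20 for these thrombin differences, 2.83 to 4.05 for the interaction, 3.45 to 4.89 for Ppbp with resting platelets (adjusted p up to 0.0795) and 0.24 to 0.30 for Pf4 between activated and resting platelets (adjusted p up to 0.0673), which 1 library at a time left at 3.76 to 4.56 and 0.21 to 0.29. The ratio with 1 library out ranged over -0.59 to 0.21 for thrombin, 3.52 to 4.50, 6.53 to 7.26, 6.75 to 7.38 and 2.46 to 3.40, where 35 arrangements allow no exact p below 0.0571.

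Over all genes, thrombin gave 45 calls, resting platelets 529, activated platelets 4031 against vehicle and 3960 against thrombin, the platelet groups 2472 between them and the interaction 1550. The block gave 1285, 3360, 6635, 6499, 5391 and 4535. DESeq2 gave 160 and 953 for the first 2, 2-group fits 11 and 188, and no filter 335 with resting platelets. Without 1 library the first ranged from 7 to 27 when a vehicle or thrombin library was left out, and the second fell to between 208 and 275 in 6 cases, without vehicle library 1, 2 or 4 or resting library 1, 2 or 4. Without number 1 the counts were 4, 58, 2522, 2422, 972 and 264. Of 2213 alternative values of named genes, 160 lost the call and 0 reversed, and these alternatives were added after seeing the data. The cause of these changes was not tested. Ppbp without platelets rests on 26 and 21 counts, which limits any fold against it.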
